A study of Mus musculus with 6 samples.

Results

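The genes of glycolysis and the pentose phosphate pathway were followed in BV2 cells, an immortalised mouse line used as a model of microglia, given lipopolysaccharide (LPS) or vehicle. The set was a list of 34 gene symbols, chosen with earlier results of these data known. It covered glucose uptake, the enzymes from hexokinase to lactate dehydrogenase, lactate export, the control of pyruvate entry into mitochondria and the pentose phosphate enzymes. Aldoa was listed under 2 Ensembl identifiers, so the 34 symbols gave 35 rows of the 55401 genes in the table. All 35 rows were among the 16371 genes that passed the filter on low counts, and together they held 1.75% to 1.93% of the counts of a library. Poly(A)-selected RNA was sequenced in 3 libraries of cells labelled Vehicle and 3 of cells labelled LPS. The labels name no genotype, dose or duration of treatment, and whether replicate libraries stem from separate cultures is not given. The p-values therefore rest on the spread between libraries, which may be technical, and on 1 cell line.

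Glycolysis splits glucose into pyruvate, which is either reduced to lactate and exported or passed into mitochondria. The pentose phosphate pathway branches off at glucose-6-phosphate, where its oxidative arm makes NADPH and its non-oxidative arm interconverts sugar phosphates with glycolysis. Macrophages and microglia exposed to LPS, the endotoxin of Gram-negative bacteria that Tlr4 senses, are known for a raised use of glucose, and NADPH feeds their oxidant-producing enzymes.

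The 6 libraries held between 45969690 and 59023474 estimated counts and listed 18984 to 20615 genes above 0. All 8 microglia and macrophage markers passed the filter on low counts, and their summed level was 2044 to 2332 CPM (counts divided by library size, with TMM factors, on a common scale) in the Vehicle libraries and 1603 to 2134 CPM in the LPS libraries. Among them Aif1 was at 3.20 ± 1.20 CPM with vehicle (SD, n = 3) and Csf1r was lower with LPS by 1.41 ± 0.08 on the log2 scale (SE, edgeR, adjusted p = 1.44e-05). Tyrobp was also lower (-0.56 ± 0.13, adjusted p = 0.0178), a call lost without Vehicle 2, Vehicle 3 or LPS 2 (up to 0.0813). The rest did not pass, with log2 fold changes of -0.06 (Cd68), -0.17 (Spi1), -0.44 (Ptprc), -0.66 (Aif1), -0.25 (Itgam) and 0.24 (Fcer1g). Itgam stood at 42.9 CPM in LPS 1 against 186 and 249 CPM in the other LPS libraries. Summed astrocyte, neuron, endothelial and fibroblast markers did not exceed 11.1 CPM in any library, and oligodendrocyte markers, nearly all of it Cnp, lay between 35.9 and 42.7 CPM. Summed Tnf, Il1b, Il6 and Nos2, genes known to respond to LPS, lay between 96.1 and 108 CPM with vehicle and between 1977 and 2479 CPM with LPS.

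With LPS, transcripts of both glucose transporters and all 3 hexokinases of the set, Pfkp, Pfkfb3, Aldoa, Aldoc, Pgk1 and glucose-6-phosphate dehydrogenase (G6pdx) rose. Those of Pfkl, Pfkfb2, the monocarboxylate transporter Slc16a1 and the pyruvate dehydrogenase kinase Pdk1 fell. Outside the set, the glucose transporter Slc2a3 fell as well (log2 fold change -1.36 ± 0.16, SE, adjusted p = 0.000704 by edgeR). Of the 35 rows, 11 rose, 4 fell and 20 did not pass the test, which was edgeR's quasi-likelihood test with Benjamini-Hochberg adjustment over all genes tested and a threshold of 0.05. Among all genes tested 23.6% passed, 12.7% higher and 10.9% lower, against 31.4% of the rows higher and 11.4% lower. Since the list was chosen with earlier results known, these shares describe it and are no test of the pathway. The median log2 fold change was 0.03 over the 35 rows and -0.02 over all genes tested. The changes were mostly small, with a median absolute log2 fold change of 0.62 over the 15 rows that passed against 0.75 over all genes that passed. The Vehicle and LPS libraries did not overlap for 17 of the 35 rows, 12 of them higher and 5 lower with LPS, against 40.8% of all genes tested. In sequencing of a whole culture, a change in the number of cells making a transcript and a change in its amount per cell cannot be told apart.

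**Figure D1:**
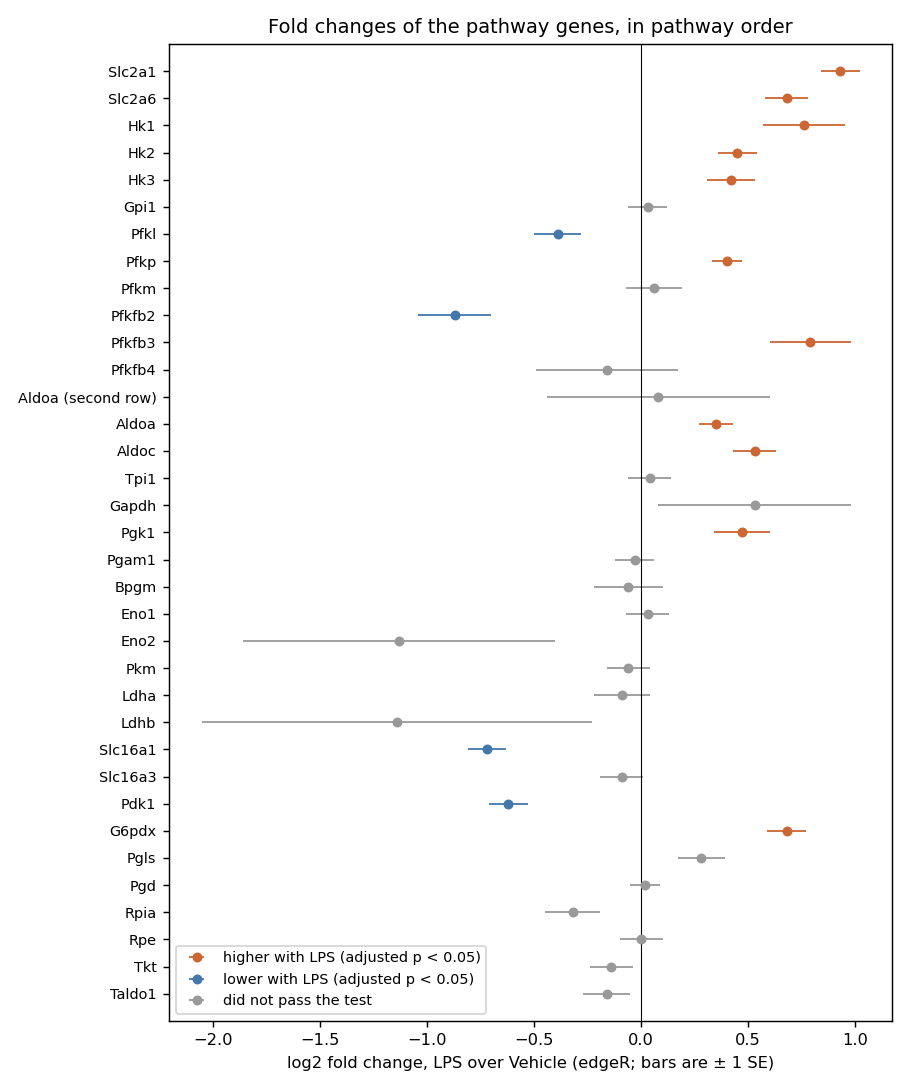
Log2 fold change (LPS over Vehicle, edgeR) of the 35 rows in pathway order, with bars of 1 SE on either side. Orange points passed the test higher with LPS (11), blue points lower (4) and grey points did not pass (20), and most orange points lie between glucose transport and aldolase.

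The calls were counted by stretch of the pathway, against 12.7% higher and 10.9% lower over all genes tested. From hexokinase to aldolase, 7 of 13 rows rose (53.8%) and 2 fell (15.4%). From triose phosphate to pyruvate, 1 of 8 rose (12.5%) and none fell. Of the 5 genes that handle lactate and pyruvate, 2 fell (40%) and none rose. Of the 7 pentose phosphate genes 1 rose (14.3%). The shares higher from triose phosphate to pyruvate and among the pentose phosphate genes were near that of all genes. Median log2 fold changes were 0.81 for the 2 transporters, 0.35 from hexokinase to aldolase and 0.00 from triose phosphate to pyruvate. They were -0.62 for the lactate and pyruvate genes and 0.00 for the pentose phosphate genes. The -0.62 includes Ldhb, which did not exceed 0.887 CPM in any library. Ldha and Slc16a3, both at -0.09, did not pass. Whether these stretches of the pathway differ from each other was not tested, and the list was chosen with earlier results of these data known.

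**Figure D2:**
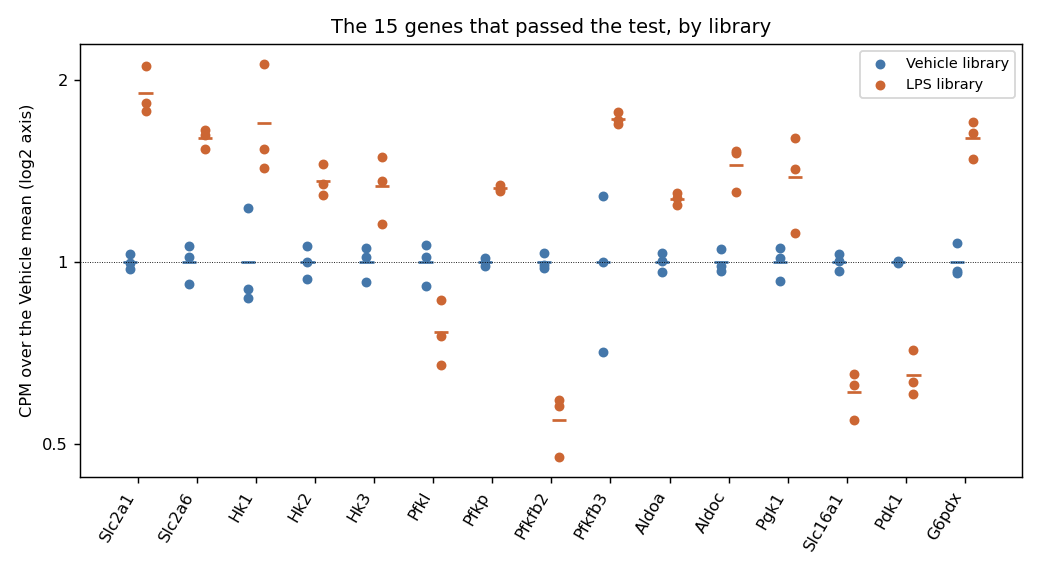
Level of each of the 15 genes that passed the test in every library, in CPM divided by the mean of the 3 Vehicle libraries, on a log2 axis. Points are libraries and short lines are group means, and for each gene the Vehicle (blue) and LPS (orange) points do not overlap.

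The promoter windows of 4 of the genes that changed are printed below because they show short motifs shared by genes that rose and genes that fell. Each is the stretch of 250 bases before a start site in the RefSeq table of build GRCm38.p6, read 5′ to 3′ on the gene's strand. Capitals mark the core of the hypoxia response element (ACGTG or GCGTG, on either strand) and, in Pgk1, also a match to the NF-kB motif. The windows lie at chr4:119108495-119108744 (plus strand) for Slc2a1, chrX:74428881-74429130 (minus strand) for G6pdx, chrX:106186850-106187099 (plus strand) for Pgk1 and chr3:104638414-104638663 (plus strand) for Slc16a1.
Slc2a1: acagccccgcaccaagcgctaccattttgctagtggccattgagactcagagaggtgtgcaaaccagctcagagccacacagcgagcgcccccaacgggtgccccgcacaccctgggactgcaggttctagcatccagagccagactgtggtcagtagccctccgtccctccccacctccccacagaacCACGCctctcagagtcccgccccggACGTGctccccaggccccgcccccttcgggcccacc
G6pdx: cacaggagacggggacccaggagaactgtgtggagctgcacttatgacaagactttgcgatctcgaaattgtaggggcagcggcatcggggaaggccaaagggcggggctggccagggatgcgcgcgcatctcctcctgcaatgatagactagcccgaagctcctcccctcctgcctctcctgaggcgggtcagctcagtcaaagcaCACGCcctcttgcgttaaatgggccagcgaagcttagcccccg
Pgk1: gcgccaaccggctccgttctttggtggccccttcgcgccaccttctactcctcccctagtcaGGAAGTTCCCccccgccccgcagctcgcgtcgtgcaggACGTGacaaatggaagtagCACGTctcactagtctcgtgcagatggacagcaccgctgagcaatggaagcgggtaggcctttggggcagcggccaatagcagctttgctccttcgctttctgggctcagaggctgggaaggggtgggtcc
Slc16a1: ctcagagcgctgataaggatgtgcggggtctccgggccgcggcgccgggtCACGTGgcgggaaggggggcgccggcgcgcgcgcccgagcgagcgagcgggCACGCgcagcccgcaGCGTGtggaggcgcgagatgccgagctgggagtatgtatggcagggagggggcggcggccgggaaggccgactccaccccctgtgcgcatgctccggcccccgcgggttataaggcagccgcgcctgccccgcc

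All 34 symbols matched the RefSeq table, with 50 windows in all, since some genes have more than one start site. Windows of the same gene can overlap, as for Eno1 and Aldoa, so the same site can count in several windows. The hypoxia response core occurred in 39 of the 50 windows (78%), against 38.6% of all 32851 windows of this length. It was found for 29 of the 34 genes, which were all 11 that rose, all 4 that fell and 14 that did not pass. The share per gene over all genes was not computed, and a gene with several windows has more chances of a match. Whether the core goes with the calls was not tested. The GC box (GGGCGG, either strand) occurred in 58% of the windows against 32.7% of all windows. The E-box CACGTG, which contains the hypoxia core and reads the same on both strands, was in 5 windows (10%, against 6.02%), those of Ldha, Pfkfb2, Pfkfb3, Pfkm and Slc16a1. The NF-kB motif (either strand) was in 3 windows (6%, against 7.25%), those of Pfkfb2, Pfkm and Pgk1. TATAAA (either strand) was in 1 window (2%, against 12.4%), that of Eno2, on the strand opposite to the gene. These are matches of letters within a fixed window, and no binding was measured. The windows of all genes were not matched to those of the members for base composition, so the shares do not single out any motif.

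Both glucose transporters of the set rose. Slc2a1 (GLUT1), the main glucose importer of many cell types, was at 167, 171 and 177 CPM in Vehicle libraries 1 to 3 and at 314, 361 and 305 CPM in LPS libraries 1 to 3. Every LPS library was above every Vehicle library, and the log2 fold change of 0.93 ± 0.09 (SE, adjusted p = 0.000291) was the largest rise of the 35 rows. Slc2a6 (GLUT6), a transporter found in leukocytes, was at 49.0, 44.3 and 51.1 CPM with vehicle and at 73.9, 77.9 and 79.3 CPM with LPS, 0.68 ± 0.10 higher on the log2 scale (adjusted p = 0.00162). Summed per kilobase of transcript, the level of these 2 transporters was 70.4 ± 2.29 with vehicle and 128.7 ± 9.38 CPM per kb with LPS (SD, n = 3), a ratio of 1.83. Slc2a1 made up 74.8% of that level with vehicle and 77.8% with LPS. Slc2a3, which fell, is no member of the set and was not part of this sum.

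The 3 hexokinases, which trap glucose in the cell as glucose-6-phosphate, rose by 1.34-fold to 1.69-fold. Hk1, the widely expressed form, was at 214, 157 and 152 CPM with vehicle and at 249, 370.5 and 268 CPM with LPS (log2 fold change 0.76 ± 0.19, adjusted p = 0.0254). The LPS libraries of Hk1 lay above the Vehicle libraries but spread over a range wider than the gap. Hk2, the form that many cells raise with growth signals and hypoxia, was at 174.5, 164 and 154 CPM with vehicle and at 212, 221 and 238 CPM with LPS, and the groups did not overlap (0.45 ± 0.09, adjusted p = 0.00797). Hk3, a form of myeloid cells, was the most abundant of the 3, at 429.5, 445 and 390.5 CPM with vehicle and 574, 629 and 488 CPM with LPS (0.42 ± 0.11, adjusted p = 0.0261). Per kilobase, Hk3 held 65.1% of the hexokinase level with vehicle and 61.5% with LPS, followed by Hk1 with 20.1% and 24.1% and Hk2 with 14.8% and 14.4%. The call for Hk2 held when any 1 library was left out. That for Hk1 survived only the removal of Vehicle 1 or LPS 1 (adjusted p otherwise up to 0.0871), and the call for Hk3 was lost when any library other than LPS 3 was left out (up to 0.0995).

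Gpi1, the isomerase that makes fructose-6-phosphate, showed no call, at 838, 825 and 915 CPM with vehicle and 810.5, 888 and 940.5 CPM with LPS (log2 fold change 0.03 ± 0.09, adjusted p = 0.822). At phosphofructokinase, the committed step of glycolysis, 2 isoforms moved in opposite directions. Pfkp, the platelet-type isoform, was at 332, 327 and 322 CPM with vehicle and at 431, 428 and 437 CPM with LPS, with little spread in either group (0.40 ± 0.07, adjusted p = 0.00514). Pfkl, the liver-type isoform, was at 199, 189.9 and 169.9 CPM with vehicle and at 141, 161 and 126 CPM with LPS, and the lowest Vehicle library stood just above the highest LPS library (-0.39 ± 0.11, adjusted p = 0.0389). Pfkm, the muscle-type isoform, was between 51.2 and 69.2 CPM in the 6 libraries, and its groups overlapped (0.06 ± 0.13, adjusted p = 0.784). The summed phosphofructokinase level was 107.4 ± 5.35 CPM per kb with vehicle and 108.5 ± 7.44 with LPS, a ratio of 1.01. The call for Pfkl was lost without Vehicle 1, Vehicle 2 or LPS 1 (adjusted p up to 0.137), while Pfkp passed without any 1 library.

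Within phosphofructokinase, the share of Pfkl went from 46.5% ± 1.42 (SD, n = 3) with vehicle to 35.1% ± 1.97 with LPS, and that of Pfkp from 35.1% ± 1.24 to 46.3%, 42.3% and 49.4% in the 3 LPS libraries, when levels were divided by the longest annotated transcript. Divided by the coding length, the shares were 32.7% and 22.5% for Pfkl and 57.2% and 68.1% for Pfkp. The direction of both shares was thus the same with either length, but which isoform led with vehicle was not. The log2 ratio of Pfkp to Pfkl was 0.74, 0.78 and 0.92 in the Vehicle libraries and 1.62, 1.41 and 1.80 in the LPS libraries. It was 0.79 higher with LPS, with no overlap between the groups.

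The PFKFB enzymes set the level of fructose-2,6-bisphosphate, an activator of phosphofructokinase, and their isoforms also split. Pfkfb3, the isoform with the highest kinase activity relative to phosphatase, was at 21.3, 38.6 and 30.0 CPM with vehicle and at 50.6, 53.1 and 51.5 CPM with LPS (log2 fold change 0.79 ± 0.19, adjusted p = 0.0194). The LPS libraries were close together and all above the Vehicle libraries, which spread widely. Pfkfb2, known as the heart isoform, was at 9.38, 8.85 and 8.97 CPM with vehicle and at 5.37, 4.32 and 5.25 CPM with LPS (-0.87 ± 0.17, adjusted p = 0.00794), the largest fall among the rows that passed. Pfkfb4 varied within both groups, at 19.2, 35.9 and 37.2 CPM with vehicle and 20.6, 38.5 and 22.6 CPM with LPS, and did not pass (-0.16 ± 0.33, adjusted p = 0.766). Pfkfb3 held 36.5% ± 3.30 (SD, n = 3) of the length-scaled PFKFB level with vehicle and 55.4% ± 6.44 with LPS. The log2 ratio of Pfkfb3 to Pfkfb2 was 1.18, 2.12 and 1.73 with vehicle and 3.23, 3.61 and 3.28 with LPS. The Pfkfb3 call was lost without Vehicle 3 or any 1 LPS library (adjusted p up to 0.0678).

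Both aldolases, which split fructose-1,6-bisphosphate, rose. Aldoa, the predominant isoform, was at 1310, 1253 and 1346 CPM with vehicle and at 1616, 1662 and 1692 CPM with LPS, with no overlap (log2 fold change 0.35 ± 0.08, adjusted p = 0.0117). Aldoc, the brain isoform, was at 85.6, 80.4 and 78.9 CPM with vehicle and at 124.2, 123.6 and 106 CPM with LPS (0.53 ± 0.10, adjusted p = 0.00518). Aldoa held 96.6% of the length-scaled aldolase level with vehicle and 96.2% with LPS. The second row named Aldoa was at 0.698 to 1.76 CPM and did not pass (adjusted p = 0.932). The call for Aldoa was lost without Vehicle 1 or Vehicle 2 (adjusted p up to 0.0701).

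Below aldolase, only Pgk1 of the 8 rows passed the test. Tpi1, which interconverts the triose phosphates, was at 646, 609 and 625 CPM with vehicle and 632, 722 and 581 CPM with LPS (log2 fold change 0.04 ± 0.10, adjusted p = 0.792). Pgk1, the first ATP-forming step, was at 1405, 1351 and 1237 CPM with vehicle and at 1894, 2135 and 1483 CPM with LPS (0.47 ± 0.13, adjusted p = 0.0360). All LPS libraries of Pgk1 were above all Vehicle libraries, with LPS 3 nearest to them. This call was lost without any library other than LPS 3 (adjusted p up to 0.123) and when libraries were scaled by total counts only. Pgam1, the mutase that follows, was at 728, 811 and 716 CPM with vehicle and 701, 716 and 788 CPM with LPS (-0.03 ± 0.09, adjusted p = 0.830). Bpgm, which makes 2,3-bisphosphoglycerate, was low, at 10.8, 10.7 and 11.3 CPM with vehicle and 8.79, 10.9 and 11.7 CPM with LPS (-0.06 ± 0.16, adjusted p = 0.809).

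The most abundant enzymes of the lower pathway did not pass. Eno1, the main enolase, was at 2025, 2014 and 2092 CPM with vehicle and 2118, 2309 and 1842 CPM with LPS (log2 fold change 0.03 ± 0.10, adjusted p = 0.845). Pkm, pyruvate kinase, was the highest of the 35 rows, at 4447, 3986 and 4203 CPM with vehicle and 3566, 4539 and 4034 CPM with LPS (-0.06 ± 0.10, adjusted p = 0.730). In both genes the Vehicle libraries fell within the range of the LPS libraries. Eno2, the neuronal enolase, did not exceed 1.99 CPM in any library and was at 0 in LPS 1.

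Gapdh, which oxidises glyceraldehyde-3-phosphate and is often used as a reference gene, stood out by its low listed level. Its own row was at 90.4, 134 and 93.1 CPM with vehicle and at 84.5, 117 and 258 CPM with LPS, well below Aldoa and Pgk1 in every library. It did not pass (log2 fold change 0.53 ± 0.45, adjusted p = 0.460), and the highest value was that of LPS 3 alone. The annotation holds 150 near-identical copies of Gapdh (at least 90% identity over at least 50% of its coding sequence), 144 of them processed pseudogenes, and 130 had counts. A copy here is any other gene with a transcript that matched, so the protein-coding genes Peli2 and Vmn2r60 are included. Neither exceeded 0.718 CPM in any library. These copies held 95.1% of the counts of Gapdh and copies together, from 91.2% in LPS 3 to 96.9% in LPS 1. Summed with its copies, Gapdh was at 2404, 2371 and 2502 CPM with vehicle and at 2688, 3027 and 2923 CPM with LPS, with no overlap between groups. The log2 fold change of the sum was 0.25 ± 0.08, with an adjusted p of 0.0567, so it did not pass either.

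The 4 highest copies, chosen after their values were seen, carried almost the same letters as Gapdh. Gm7336 was identical to it over 1017 aligned bases, and Gm5559, Gm2606 and Gm12070 each had 1 mismatch in 999, which were T463A, C661T and G439A, counted from base 1 of the longest Gapdh coding sequence with the Gapdh base first. Bases 433 to 493 are printed for Gapdh and the 2 copies that differ from it there, with the mismatch in capitals.
Gapdh: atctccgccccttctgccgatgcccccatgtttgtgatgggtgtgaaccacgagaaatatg
Gm5559: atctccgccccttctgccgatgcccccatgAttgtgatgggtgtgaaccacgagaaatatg
Gm12070: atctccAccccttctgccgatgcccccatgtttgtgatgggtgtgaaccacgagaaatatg

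The counts of these copies swung between libraries of the same group. Gm5559 was at 592, 538 and 1340.2 CPM with vehicle and 869, 744 and 536 CPM with LPS. Gm7336 was at 631, 493 and 187 CPM with vehicle and 634, 645 and 614 CPM with LPS. In Vehicle 3, Gm5559 was thus high where Gm7336 was low. Gm12070 was at 250.3, 306 and 108.5 CPM with vehicle and at 390.3, 535 and 316 CPM with LPS, without overlap between groups. Of the other members, 12 also had listed copies, and copies held over 5% of the counts only for Ldhb (17.5%), Eno1 (14.7%) and Pgam1 (9.71%), besides Gapdh. One copy of Eno1, Eno1b, was at 6.52 CPM in LPS 2 and between 184.6 and 207.5 CPM in the other libraries. Adding the copies to each member changed no call among the 35 rows.

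**Figure D3:**
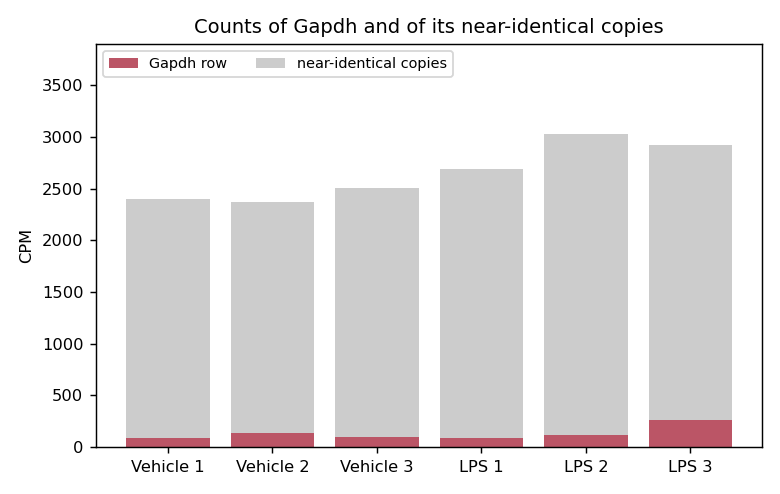
CPM of the Gapdh row (red) and summed CPM of its near-identical copies (grey) in each library, stacked from 0. The copies held 91.2% to 96.9% of each bar, and the 3 LPS bars are taller than the 3 Vehicle bars.

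At the end of glycolysis the calls were falls. Ldha, which reduces pyruvate to lactate, was at 2296, 2226 and 2049 CPM with vehicle and 2012, 2436 and 1728 CPM with LPS, and did not pass (log2 fold change -0.09 ± 0.13, adjusted p = 0.656). Ldhb, the isoform of oxidative tissues, stayed below 0.9 CPM in every library. Slc16a1 (MCT1), a carrier of lactate and pyruvate, was at 251, 243.5 and 234.5 CPM with vehicle and at 159, 133 and 152 CPM with LPS (-0.72 ± 0.09, adjusted p = 0.00101). Slc16a3 (MCT4), the carrier typical of lactate-exporting cells, was at 239.9, 254 and 260.5 CPM with vehicle and 266, 221.5 and 223 CPM with LPS, and its groups overlapped (-0.09 ± 0.10, adjusted p = 0.565). Slc16a3 thus held 51.4% ± 1.88 (SD, n = 3) of the length-scaled level of both carriers with vehicle and 62.0% ± 1.76 with LPS. The log2 ratio of Slc16a3 to Slc16a1 was -0.06, 0.06 and 0.15 with vehicle and 0.74, 0.73 and 0.55 with LPS.

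Pdk1, a kinase that inactivates pyruvate dehydrogenase and so limits the entry of pyruvate into the citric acid cycle, was at 169.4, 170.2 and 168.6 CPM with vehicle. In the LPS libraries it was at 121, 107 and 103 CPM. The LPS libraries were all below the Vehicle libraries, which agreed within 2 CPM, and the log2 fold change was -0.62 ± 0.09 (adjusted p = 0.00189).

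In the oxidative arm of the pentose phosphate pathway, the rise was in its first enzyme. G6pdx, which makes NADPH and sets the flux into the pathway, was at 306.5, 304 and 339.7 CPM with vehicle and at 468, 516 and 539.9 CPM with LPS (log2 fold change 0.68 ± 0.09, adjusted p = 0.00120). Pgls, the lactonase that follows, was at 44.9, 36.0 and 43.8 CPM with vehicle and at 52.1, 50.2 and 49.6 CPM with LPS. Its groups did not overlap, but it did not pass (0.28 ± 0.11, adjusted p = 0.112). Pgd, the second NADPH-forming dehydrogenase, was at 459, 452 and 455 CPM with vehicle and 443, 468 and 476 CPM with LPS (0.02 ± 0.07, adjusted p = 0.873). G6pdx held 45.9% ± 1.46 (SD, n = 3) of the length-scaled level of the 3 enzymes with vehicle and 56.8% ± 1.08 with LPS, while Pgd went from 48.1% ± 1.52 to 37.6% ± 0.634. With coding lengths G6pdx held 35.7% with vehicle and 46.1% with LPS, and Pgd 54.9% and 44.7%.

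None of the 4 non-oxidative genes passed. Tkt, transketolase, was the highest per kilobase, at 691, 655 and 775 CPM with vehicle and 606, 609.9 and 711 CPM with LPS (log2 fold change -0.14 ± 0.10, adjusted p = 0.373). Taldo1, transaldolase, was between 184 and 206 CPM with vehicle and between 150.0 and 192 CPM with LPS (-0.16 ± 0.11, adjusted p = 0.345). Rpia, the ribose-5-phosphate isomerase, was at 24.1, 25.6 and 22.9 CPM with vehicle and at 20.9, 20.3 and 17.0 CPM with LPS. Its groups did not overlap and it did not pass (-0.32 ± 0.13, adjusted p = 0.118), but it passed when libraries were scaled by total counts only (-0.41). Rpe, the epimerase, lay between 51.1 and 58.1 CPM in all libraries (adjusted p = 0.983). The summed non-oxidative level was 390.0 ± 22.9 CPM per kb with vehicle and 353.8 ± 3.23 with LPS, and the oxidative level 259.9 ± 8.79 and 337.2 ± 18.1.

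**Figure D4:**
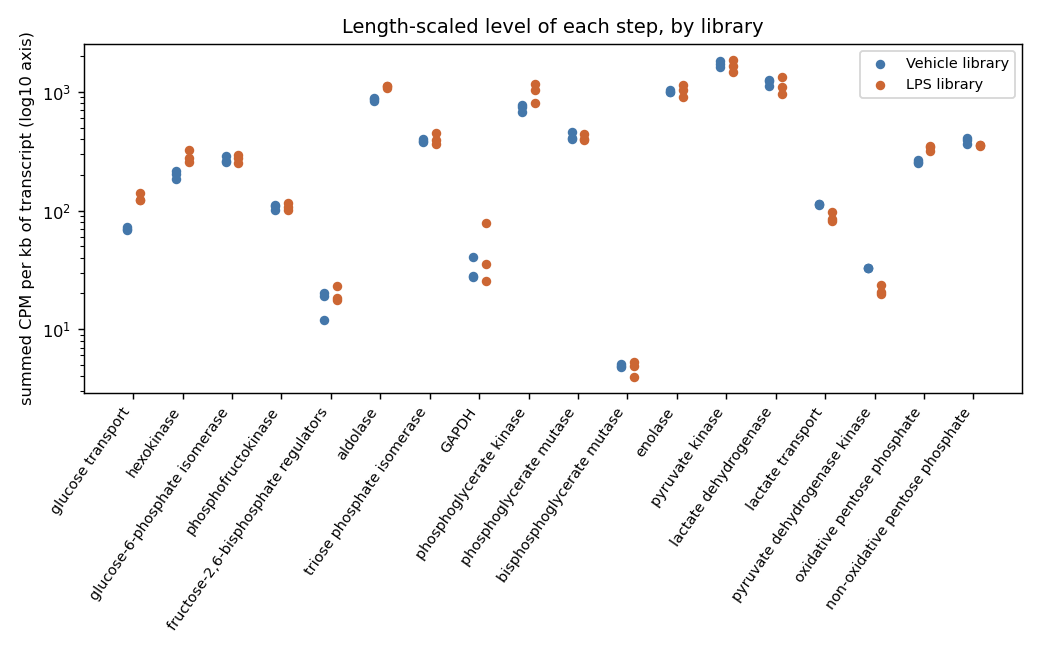
Summed level of the set's genes at each step in every library, in CPM per kilobase of longest transcript, on a log10 axis, without the copies of Gapdh. Blue points are Vehicle and orange points LPS libraries. Phosphofructokinase (107.4 and 108.5 on average) overlaps, while glucose transport (70.4 and 128.7) and aldolase (870.5 and 1112) do not.

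Across the steps, the length-scaled levels with vehicle spanned from 4.93 CPM per kb for bisphosphoglycerate mutase to 1732 for pyruvate kinase. Lactate dehydrogenase (1207), enolase (1009), aldolase (870.5) and phosphoglycerate kinase (729) followed pyruvate kinase in that order. Gapdh enters this order at its own row only, and its sum with copies, 2426 CPM with vehicle before division by length, was not ranked. With LPS the order below pyruvate kinase was lactate dehydrogenase (1134.5), aldolase (1112), enolase (1031) and phosphoglycerate kinase (1007), and the LPS libraries of these 4 steps overlapped. Both orders rest on the lengths of the longest transcripts. Coding lengths, which can change the order, were not used for these levels. The mean level with LPS over that with vehicle was 1.83 for glucose transport, 1.44 for the Gapdh row without its copies, where the groups overlapped, 1.41 for hexokinase, 1.38 for phosphoglycerate kinase, 1.3 for the oxidative pentose phosphate enzymes and 1.28 for aldolase. It was 0.780 for lactate transport and 0.652 for pyruvate dehydrogenase kinase.

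The balance of isoforms within a library was compared for 11 pairs of genes. An exact two-sided permutation test of 3 against 3 libraries cannot give a p below 0.1. The groups did not overlap, with p = 0.1 by this exact test, for Pfkp to Pfkl (0.79 higher with LPS on the log2 scale), Pfkm to Pfkl (0.44), Pfkfb3 to Pfkfb2 (1.69) and Slc16a3 to Slc16a1 (0.63). After adjustment over the 11 pairs these exact p-values were 0.28. The other 7 pairs overlapped between groups (exact p from 0.2 to 0.4), among them Hk2 to Hk1 (-0.31), Hk3 to Hk1 (-0.34) and Aldoc to Aldoa (0.18).

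**Figure D5:**
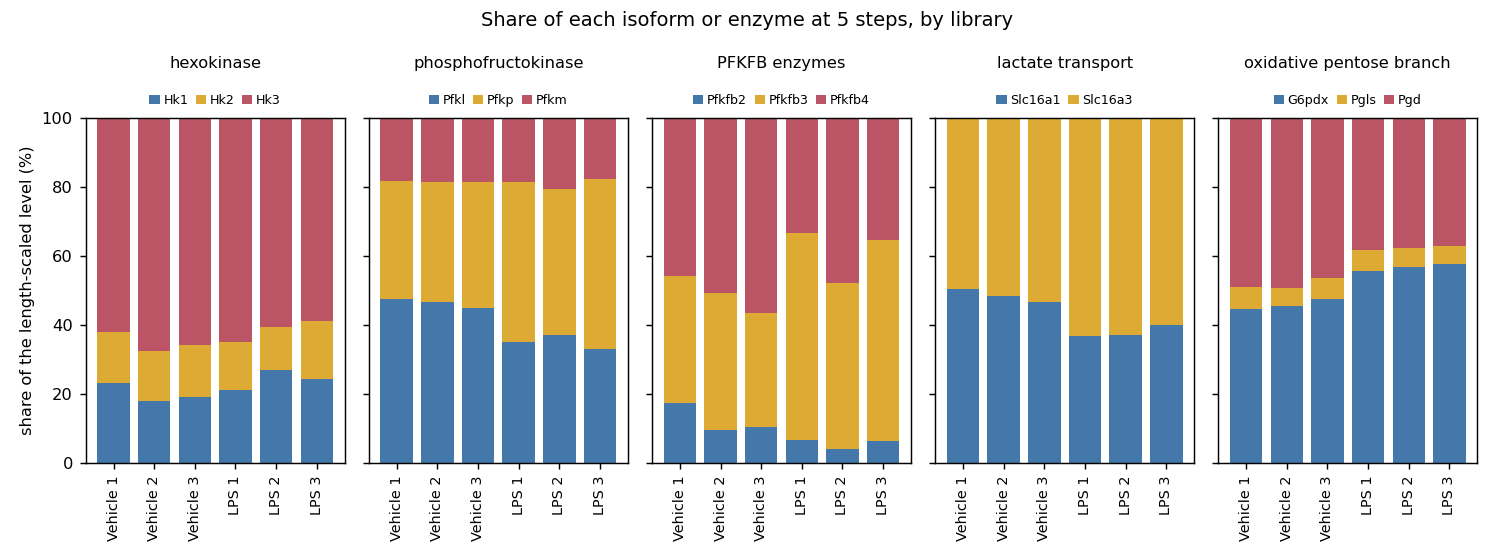
Share (%) of each gene in the length-scaled level of 5 steps, by library, with bars stacked to 100. The hexokinase shares overlap between the groups, while Pfkp, Pfkfb3, Slc16a3 and G6pdx take larger shares in every LPS library than in any Vehicle library.

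Of a list of 51 further genes around the pathway, 38 were tested, 6 rose, 5 fell and 27 did not pass, with a median log2 fold change of 0.00. Of the 51 genes, 11.8% were thus higher and 9.8% lower, near the 12.7% and 10.9% over all genes tested. The bases differ, since 13 of the 51 genes were not tested. Arrdc4, an arrestin-domain protein that limits glucose uptake, was at 37.0, 33.0 and 36.9 CPM with vehicle and at 101, 98.0 and 80.8 CPM with LPS (1.39 ± 0.12, adjusted p = 0.000132), a larger fold change than that of any member that rose. Txnip, listed with Arrdc4 among the glucose uptake regulators and named after its values were seen, had the opposite sign. It went from 348 ± 77.6 to 255 ± 20.4 CPM (SD, n = 3) and did not pass (adjusted p = 0.0689 by edgeR). Txnip passed as lower with the replicate block (adjusted p = 0.0379) and with DESeq2's Wald test (0.0305). Pgm2, a phosphopentomutase, rose from 31.7 ± 1.95 to 51.8 ± 1.83 CPM (SD, n = 3, adjusted p = 0.00167 by edgeR), and Gys1, glycogen synthase, from 63.1 ± 10.3 to 94.8 ± 2.34 CPM (adjusted p = 0.0113). Mpc1, a subunit of the mitochondrial pyruvate carrier, rose from 12.1 ± 1.73 to 18.3 ± 1.68 CPM (adjusted p = 0.0262), a call lost without Vehicle 2, Vehicle 3, LPS 1 or LPS 2 (up to 0.0993). Mpc2, the other subunit of that carrier and named after its values were seen, fell from 36.2 ± 6.36 to 24.3 ± 3.79 CPM (SD, n = 3, adjusted p = 0.0411 by edgeR), a call lost without Vehicle 1, Vehicle 2, LPS 2 or LPS 3 (up to 0.147), with limma voom and with edgeR's test as before version 4.

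Among the genes of that list that fell, Slc2a3 (GLUT3), the high-affinity glucose transporter, was at 11.2, 10.9 and 11.3 CPM with vehicle and at 4.67, 4.32 and 4.06 CPM with LPS. Its log2 fold change of -1.36 ± 0.16 (adjusted p = 0.000704) was opposite in sign to those of Slc2a1 and Slc2a6. Emb, a chaperone of monocarboxylate transporters, fell from 379 ± 40.5 to 216 ± 16.9 CPM (SD, n = 3, adjusted p = 0.00112 by edgeR), in the same direction as Slc16a1. Bsg, listed with Emb among the lactate transport genes and named after its values were seen, did not pass (adjusted p = 0.774 by edgeR). It was at 267 ± 31.8 CPM with vehicle and 278.5 ± 38.3 CPM with LPS (SD, n = 3). Eno3, the muscle enolase, fell from 115 ± 12.3 to 65.3 ± 7.94 CPM (adjusted p = 0.00218). Gpd1, a glycerol-3-phosphate dehydrogenase, was at 2.40 ± 0.699 CPM with vehicle and 1.04 ± 0.307 CPM with LPS (adjusted p = 0.0482), a call lost without any 1 of the 6 libraries (up to 0.157).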

How the data were processed

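RNA of BV2 cells was measured in 3 Vehicle and 3 LPS libraries, prepared from poly(A)-selected RNA per the labels' protocols. The authors deposited 1 table of expected counts, estimates per gene and library. All were whole numbers, and low values were spaced by 3.71 to 3.78 counts per library, so a value is not a number of reads. Bowtie2 2.2.8, HISAT2, StringTie 1.3.1 and DESeq2 are named, without role or order, in the submitters' processing notes, and the build is not given in the sources used here. All value columns were mapped to samples by name.

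Genes kept by filterByExpr (minimum count 10, minimum total 15) were compared with edgeR 4.0.16 in R 4.3.3: TMM scaling, robust quasi-likelihood F-test, two-sided, all 6 libraries, adjusted by Benjamini-Hochberg over all 16371 genes. The SE is the log2 fold change over the square root of F. CPM use TMM-scaled sizes of the tested genes. Lengths, from GENCODE M21 by Ensembl identifier, are those of the longest transcript. Isoform ratios used a prior count of 2 and exact permutation tests (scipy 1.17.1). Copies were found with BLAST 2.17.0. The annotation's build may differ from the authors', so coordinates are given only for RefSeq windows. The comparison was also run on simulated data as a check of the code, and no result here rests on its outcome. Figures were drawn with matplotlib 3.10.9.

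The members and lists were chosen with earlier results of these data known. Values by library are given for every member that passed and for the highest member per kilobase at each step, and up to 4 genes each way are named from the 51 further genes. Mpc2, Bsg and Txnip were named besides these, after their values were seen. Alternatives were other scalings, filters and tests, a replicate block, division by the spacing, coding lengths, and leaving out each library. Strand is not stated, so overlapping genes cannot be told apart.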

Additional observations from a re-analysis of the deposited data

How the results depend on the processing

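Under 17 alternatives to the edgeR comparison, no member and none of the 51 further genes that passed changed direction. Slc2a1, Slc2a6, Hk2, Pfkp, Pfkfb2, Aldoc, Slc16a1, Pdk1 and G6pdx passed under all 17. Leaving out each library in turn left 7 to 9 members higher (11 with all libraries), with 7 without Vehicle 2, Vehicle 3 or LPS 2, and 3 to 4 members lower. Over all genes these fits called 2344 to 2844 genes, and 4535 without LPS 3, against 3864. Scaling by total counts only called 10.1% of genes higher and 13.8% lower, and lost Pgk1 and added Rpia among the members. Of the 51 further genes, 3 were lower with limma voom and 3 with edgeR's test as before version 4, against 5. Leaving out each library gave 3 to 4 lower and 4 to 8 higher, against 6. The labels do not say whether the replicate numbers pair the libraries, and the main comparison did not pair them. In their deviations from the group means, same-numbered libraries correlated at r = 0.073, 0.045 and 0.058 across genes. Each was the highest for its library, but the correlations were small and whether the libraries are paired was not tested. With the replicate block 10 members were higher and 4 lower, with Hk1 at an adjusted p of 0.0539, and 3816 genes were called. Adding copies and edgeR's older test were chosen after seeing the data. The cause of these differences was not tested. Eno2, Ldhb and the second Aldoa row lie near or below 1 CPM, where depth limits any comparison.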
